A study of Homo sapiens with 12 samples.

Results

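The genes described here are 10 epithelial genes: the keratins KRT8, KRT18, KRT19, KRT20 and KRT80, the adhesion genes CDH1 and EPCAM, and the claudins CLDN1, CLDN4 and CLDN7. They were chosen by name among 20046 protein-coding genes, and their acetylation was read from H3K27ac peaks within 1 kb and within 50 kb of their GENCODE transcript starts (hg38). H3K27ac, acetylation of histone H3 at lysine 27, marks active promoters and enhancers. It was profiled by CUT&RUN, in which an antibody tethers a nuclease that releases the marked DNA for sequencing. The cells were HCT116, an established colorectal cancer line of epithelial origin. Untreated cells were compared with cells given cobimetinib, an inhibitor of the MAPK kinase MEK1, at 1 μM, and with cells given the cytokine TNFα at 100 ng/ml, both treatments lasting 24 hours. The design asked what inhibition or stimulation of the MAPK/AP1 pathway does to regulatory regions. Each condition had 2 replicates with the H3K27ac antibody, and 6 further libraries made with IgG are not analysed here.

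Keratins pair as type I and type II chains into the intermediate filaments of epithelial cells. KRT8 (type II) with KRT18 or KRT19 (type I) forms the filaments of simple epithelia such as the intestinal lining, KRT20 is a type I keratin typical of differentiated intestinal epithelium, and KRT80 is a type II keratin. E-cadherin, the product of CDH1, joins neighbouring cells at adherens junctions, EPCAM is an epithelial adhesion molecule of the cell surface, and claudins form the seal of tight junctions. Repressors of the ZEB and SNAI families bind E-box sequences in epithelial promoters, and AP1, a dimer of FOS and JUN proteins, acts downstream of MAPK signaling.

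Peak scores were compared only as ranks within each library's own list, where rank 1 is the highest score. The 6 lists held between 69813 and 124771 peaks, and a gene or region without a peak, or ranked past the shortest list, was set to rank 69814 in the fits. A gene's value is that of its highest-scoring peak within 1 kb of any annotated start, which can be another start in another library. Untreated replicate 2 stood apart. The median width of its 20000 highest-scoring peaks was 380 bp against 922 to 1265.5 bp in the other 5 libraries, and 7102 peaks shared its 20000th score against 332 to 533 elsewhere. Its part in the comparisons with untreated cells was not tested beyond leaving it out. The labelled cell type was checked against markers. KRT7 and KRT23, the other keratins of simple epithelia examined, had promoter peaks within the top 20000 of all 6 libraries. By contrast 11 of 16 epidermal and hair keratins had no promoter peak in any library, and 0 of 16 reached the top 20000 in all 6. Among mesenchymal markers 2 of 12 did so (ZEB1 and COL1A1), and VIM, the gene of the mesenchymal filament protein vimentin, reached the top 20000 in 5 of 6 libraries, at ranks between 5171 and 20723. Of 10 epithelial membrane and regulator genes 3 did so, and VIL1 had no peak. Among blood and endothelial markers the counts were 0 of 5 and 0 of 3, where all protein-coding genes gave 25.8%.

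The following words were searched on both strands of member sequences: AP1 (TGACTCA or TGAGTCA), the E2-box bound by ZEB and SNAI factors (CACCTG or CAGGTG), the GC box (GGGCGG or CCGCCC) and the TATA word (TATAAA or TTTATA). RefSeq (GRCh38.p14) gave promoters for KRT8, KRT20, CLDN1, CLDN4 and CLDN7, and the 250 bases before a start are shown for each, because they span the highest-ranked member promoter, the promoters with AP1 and E2-box words and both promoters at the bottom of the order. Capitals mark any of the words.
KRT8 upstream start, chr12:52926470-52926719, minus strand: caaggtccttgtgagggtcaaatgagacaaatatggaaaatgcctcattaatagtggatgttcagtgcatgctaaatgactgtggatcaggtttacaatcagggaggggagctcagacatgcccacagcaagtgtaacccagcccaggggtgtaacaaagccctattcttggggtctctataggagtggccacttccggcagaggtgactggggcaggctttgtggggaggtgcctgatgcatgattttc
CLDN4 canonical start, chr7:73830746-73830995, plus strand: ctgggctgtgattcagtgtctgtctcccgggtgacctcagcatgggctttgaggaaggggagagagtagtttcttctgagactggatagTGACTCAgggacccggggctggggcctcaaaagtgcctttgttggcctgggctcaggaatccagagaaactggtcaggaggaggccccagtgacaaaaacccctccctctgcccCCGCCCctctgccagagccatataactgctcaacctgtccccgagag
CLDN7 canonical start, chr17:7262479-7262728, minus strand: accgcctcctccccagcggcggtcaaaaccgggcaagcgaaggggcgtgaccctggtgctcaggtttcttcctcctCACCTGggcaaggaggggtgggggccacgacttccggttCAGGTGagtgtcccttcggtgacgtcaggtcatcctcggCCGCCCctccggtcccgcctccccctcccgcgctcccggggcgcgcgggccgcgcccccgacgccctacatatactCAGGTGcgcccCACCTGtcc
KRT20 canonical start, chr17:40885243-40885492, minus strand: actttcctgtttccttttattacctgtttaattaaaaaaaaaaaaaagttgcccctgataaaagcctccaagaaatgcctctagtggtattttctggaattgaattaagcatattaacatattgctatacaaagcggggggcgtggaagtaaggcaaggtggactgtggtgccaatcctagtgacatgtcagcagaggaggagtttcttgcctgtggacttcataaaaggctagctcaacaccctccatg
CLDN1 canonical start, chr3:190322447-190322696, minus strand: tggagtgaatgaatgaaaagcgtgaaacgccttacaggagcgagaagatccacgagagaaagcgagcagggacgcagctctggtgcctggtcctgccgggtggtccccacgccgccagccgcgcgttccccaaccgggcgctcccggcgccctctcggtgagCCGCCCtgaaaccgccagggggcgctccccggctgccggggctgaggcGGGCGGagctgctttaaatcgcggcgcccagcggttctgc
The CLDN4 stretch held 1 AP1 word, the only such word in the 6 member stretches searched (CLDN7 has a second start), and 1 GC-box word. The CLDN7 stretch held 4 E2-box words and 1 GC-box word, and the CLDN1 stretch held 2 GC-box words. None of the words lay in the KRT8 or KRT20 stretches, whose GC contents were 50.4% and 41.2% against 71.2% for CLDN7, 68.8% for CLDN1 and a median of 58.0% over 35116 RefSeq promoter stretches of this length. Of those stretches 17.5% held an E2-box word, 42.6% a GC-box word, 4.2% an AP1 word and 10.7% a TATA word. A match is only a match of letters.

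From the distal regions described further on, 120 bases of hg38 are shown for 4 regions that ranked highest on average near their gene and held an AP1 word, which the capitals mark. The highest-ranked regions near KRT8, KRT19, KRT20 and EPCAM also held AP1 words and are not shown, so these 4 are examples.
KRT80 downstream region, chr12:52147400-52147519, plus strand: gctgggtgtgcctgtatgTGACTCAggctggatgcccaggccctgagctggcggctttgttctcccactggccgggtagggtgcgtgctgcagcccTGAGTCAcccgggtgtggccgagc
KRT18 downstream region, chr12:52993190-52993309, plus strand: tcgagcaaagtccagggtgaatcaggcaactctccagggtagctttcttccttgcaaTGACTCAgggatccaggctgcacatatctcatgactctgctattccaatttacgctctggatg
CDH1 intronic region, chr16:68756333-68756452, plus strand: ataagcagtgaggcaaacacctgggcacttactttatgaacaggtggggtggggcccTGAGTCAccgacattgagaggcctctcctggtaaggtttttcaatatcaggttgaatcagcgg
CLDN4 intronic region, chr7:73809693-73809812, plus strand: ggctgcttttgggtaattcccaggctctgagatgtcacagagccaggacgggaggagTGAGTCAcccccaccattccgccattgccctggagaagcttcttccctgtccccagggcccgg
The KRT80 stretch held both AP1 words of its region, and the other stretches held the only AP1 word of theirs.

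KRT8 had the highest-ranked promoter peak of the family. The peak, over an annotated start 21.4 kb upstream of the canonical one, ranked 1055 and 320 in untreated replicates 1 and 2, 1503 and 2277 with cobimetinib, and 1141 and 652 with TNFα. Both cobimetinib libraries ranked below the other 4. The difference was -1.67 ± 0.81 (log2 of rank, SE, n = 2 against 2) for cobimetinib against untreated cells and 1.10 ± 0.53 for TNFα against cobimetinib, where a positive value means the first-named group ranked higher. Neither passed limma's test over all promoters (adjusted p = 0.863 and 0.510). Between 0.907% and 11.5% of the 13555 promoters tested ranked above it in the same library. At the canonical KRT8 start itself the peak ranked lower, at 16923 and 34025 in untreated cells, 77562 and 40971 with cobimetinib, and 15718 and 18781 with TNFα. There too both cobimetinib libraries ranked lowest. A further KRT8 start, looked at after its values were seen, lies under the region chr12:52906926-52908564 and went the other way, with 11941 and 11168 in untreated cells, 6447 and 11132 with cobimetinib, and 15233 and 20866 with TNFα. Cobimetinib ranked highest and TNFα lowest there, with a TNFα against cobimetinib difference of -1.07 ± 0.47.

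KRT18 lies next to KRT8, and the most upstream annotated KRT8 transcripts start inside KRT18, so the pair share peaks. The KRT18 promoter ranked 24005 and 29058 in untreated cells, 38424 and 17074 with cobimetinib, and 6168 and 15391 with TNFα. Both TNFα libraries ranked above the other 4, while the untreated and cobimetinib libraries overlapped. The differences were 1.44 ± 0.84 for TNFα against untreated cells and 1.39 ± 0.73 against cobimetinib (SE, n = 2 against 2, limma adjusted p = 0.975 and 0.540). KRT19, the other type I partner of KRT8, ranked 22364 and 91529 in untreated cells, 28678 and 15621 with cobimetinib, and 20109 and 91418 with TNFα, in untreated replicate 2 at an internal start. The replicates lay so far apart that all 3 conditions overlapped.

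KRT80 was the other keratin near the top of the lists. Its promoter ranked 720 and 1527 in untreated cells, 662 and 1156 with cobimetinib, and 3068 and 1180 with TNFα. Both TNFα libraries ranked below both cobimetinib libraries (1 of them narrowly) and overlapped with untreated cells. The TNFα against cobimetinib difference was -1.12 ± 0.69 (SE, n = 2 against 2, limma adjusted p = 0.595). Between 3.57% and 12.8% of tested promoters ranked above it. KRT20 stood at the other end. A peak lay within 1 kb of its start only in untreated replicate 1, at rank 54939, and in TNFα replicate 1, at rank 51706, and no treatment difference could be read from it.

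**Figure D1:**
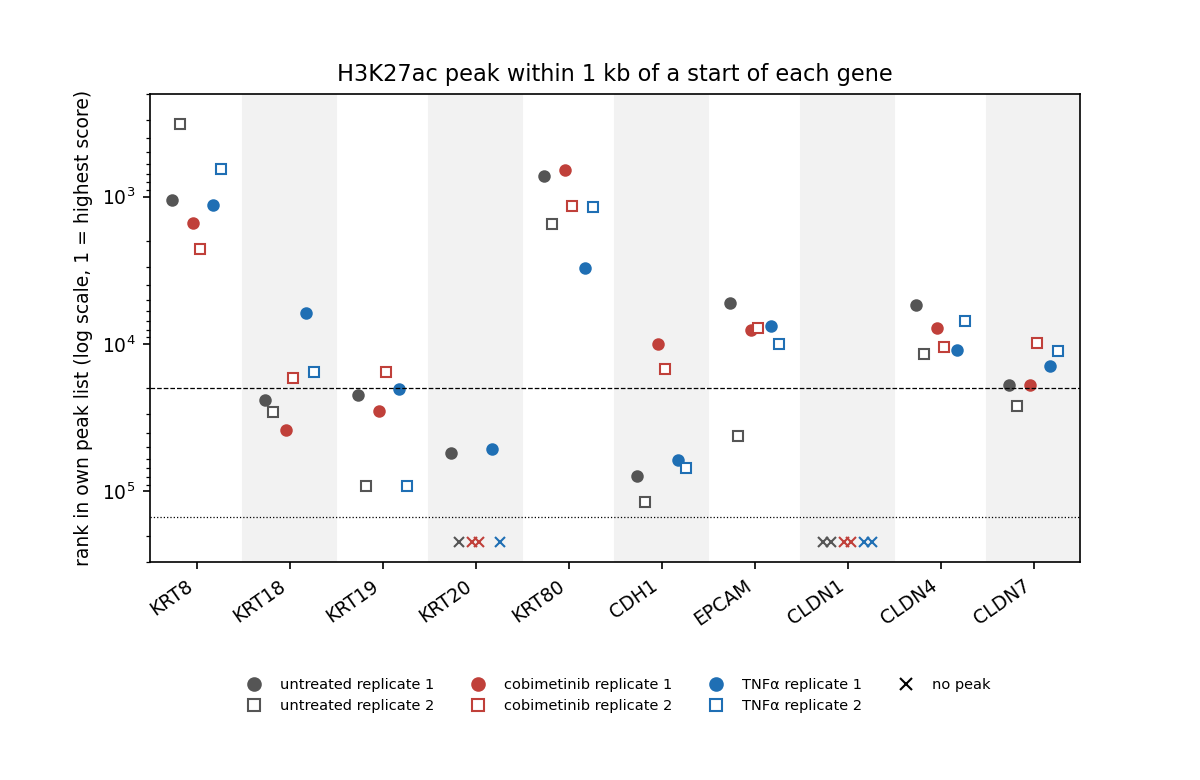
Rank of the highest-scoring H3K27ac peak within 1 kb of any annotated start of each of the 10 genes, on a log axis with rank 1 at the top. Filled circles are replicate 1, open squares are replicate 2, crosses below the dotted line mark libraries without a peak, and the dashed line is rank 20000. KRT8 and KRT80 lie at ranks 320 to 3068 in all 6 libraries, and CLDN1 has no peak in any.

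CDH1 showed the largest promoter difference of the family, and it did not lie at the canonical start. The highest-scoring CDH1 peak ranked 79244 and 117375 in untreated cells, 9959 and 14803 with cobimetinib, and 61438 and 69035 with TNFα. Both cobimetinib libraries ranked above the other 4. Against untreated cells the difference was 2.52 ± 0.52 and for TNFα against cobimetinib -2.42 ± 0.33 (SE, n = 2 against 2). Both untreated libraries were set to the floor, so that group added no spread to the first SE, and both TNFα libraries lay near it or above it. The unadjusted limma p-values were 0.0072 and 0.00217, and the adjusted ones 0.863 and 0.332. Among the 10397 promoters with a peak in all 6 libraries the second difference passed (limma adjusted p = 0.0289), where 123 promoters passed in all (1.18%). The libraries did not share 1 peak. The cobimetinib peaks lay 359 and 271 bp from the start of a transcript annotated with a retained intron, inside the gene in a region 73630 bp from the canonical start. Those of untreated replicate 1 and TNFα replicate 1 lay 603 and 464 bp from that same start, that of untreated replicate 2 near another internal start and that of TNFα replicate 2 at the canonical start. With starts of protein-coding transcripts only, or with the canonical start only, the differences were 0.0 and 0.0081. Within 1 kb of the canonical CDH1 start a peak was called only in untreated replicate 1, at rank 85772, and in TNFα replicate 2, at rank 69035.

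EPCAM kept a promoter peak in every library. It ranked 5261 and 42366 in untreated cells, 8068 and 7783 with cobimetinib, and 7546 and 9959 with TNFα. Both untreated replicates lay outside the range of the treated libraries, on opposite sides, so by this value no condition separated from another. In untreated replicate 1 and in both cobimetinib libraries the highest peak lay at an upstream start, and in the others at the canonical start. At the canonical start the ranks were 11546 and 42366 in untreated cells, 11530 and 9704 with cobimetinib, and 7546 and 9959 with TNFα. All treated libraries ranked above both untreated ones there (cobimetinib replicate 1 only just). The region over it differed by 1.06 ± 0.95 for cobimetinib and 1.35 ± 0.93 for TNFα (SE, n = 2 against 2). At the region over the upstream start both treatments overlapped with untreated cells.

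The claudins differed among themselves. CLDN4 ranked 5401 and 11736 in untreated cells, 7825 and 10489 with cobimetinib, and 11020 and 7009 with TNFα, and the conditions overlapped. These peaks lay at 4 different starts. The region over the canonical start, chr7:73830560-73833926, looked at after its values were seen, ranked 5401 and 4767, 8192 and 20498, and 14643 and 7009 in the same order. Both untreated libraries ranked above all 4 treated ones there, by -1.35 ± 0.66 for cobimetinib and -1.0 ± 0.56 for TNFα (SE, n = 2 against 2). In untreated replicate 2 that peak lay beyond 1 kb of the canonical start, and within 1 kb of it the conditions overlapped, with 5401 and 53122, 16988 and 26781, and 14643 and 7009. CLDN7 ranked 19125 and 26242 in untreated cells, 19047 and 9847 with cobimetinib, and 14093 and 11085 with TNFα. All 4 treated libraries ranked above both untreated ones (cobimetinib replicate 1 only just), and the differences were 0.71 ± 0.80 for cobimetinib and 0.84 ± 0.72 for TNFα (SE, n = 2 against 2, limma adjusted p = 0.881 and 0.975). The CLDN7 peaks lay at several starts, and at the canonical start the ranks were 19125 and 26242 in untreated cells, 19430 and 9847 with cobimetinib, and 14847 and 11085 with TNFα. There cobimetinib overlapped with untreated cells and TNFα still ranked above them. CLDN1 had no peak within 1 kb of a start in any of the 6 libraries.

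By the median over the 6 libraries the order of the promoters was KRT8, KRT80, EPCAM, CLDN4, CLDN7, KRT18, KRT19, CDH1, and then KRT20 and CLDN1 at the floor. KRT8 and KRT80 overlapped with each other, and from EPCAM to CDH1 each gene overlapped with the next. KRT8 and KRT80 did not overlap with EPCAM or CLDN4. A peak was present in all 6 libraries for 8 of 10 genes, beside 10397 of all 20046 genes, and in the top 20000 of all 6 for 3 of 10 (KRT8, KRT80 and CLDN4), beside 25.8%. The number of members with a peak was 8 or 9 in every library. The number with a top-20000 peak was 5 and 3 in untreated cells, 6 and 8 with cobimetinib, and 6 and 6 with TNFα. Over all genes the shares were 51.6% and 32.5%, 46.9% and 48.1%, and 47.4% and 44.6%, also lowest in untreated replicate 2. Rank is not adjusted for peak or gene length, so the order compares peaks and not amounts of acetylation per base.

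No member promoter passed limma's test in any comparison, with 0 of 9 called in each beside 0.0% of all 13555 promoters. At an unadjusted p below 0.05 CDH1 was the 1 member in cobimetinib against untreated cells (4.25% of all promoters) and in TNFα against cobimetinib (11.2%), and 0 of 9 were found in TNFα against untreated cells (2.71%). Both cobimetinib libraries ranked above both untreated ones for 2 of 9 members, CDH1 and CLDN7, beside 20.7% of all promoters, and below them for KRT8 alone, beside 11.8%. TNFα ranked above untreated cells for KRT18, CDH1 and CLDN7, 3 of 9 beside 12.3%. Both untreated libraries were at the floor for CDH1, and its difference there was 0.10 ± 0.12 (SE). Untreated cells ranked above TNFα for 0 of 9, beside 13.9%. TNFα ranked above cobimetinib for KRT8 and KRT18 (14.7% of all promoters) and below it for KRT80 and CDH1 (27.1%). The median differences of the 9 members were 0.26, 0.08 and 0.04 for cobimetinib against untreated, TNFα against untreated and TNFα against cobimetinib, beside 0.27, 0.06 and -0.19 over all promoters. With 2 libraries against 2 an exact two-sided permutation test of a single value cannot go below p = 0.333.

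The KRT8 peak at the upstream start stood apart by its width. It was 3548 and 2942 bp wide in untreated cells, 3691 and 3392 bp with cobimetinib, and 3600 and 3663 bp with TNFα. Only 0.00823% to 0.108% of tested promoters with a peak had a wider one in the same library, also in untreated replicate 2, whose peaks were narrow in general. At the canonical KRT8 start the widths were only 1126 and 605 bp, 333 and 519 bp, and 781 and 592 bp in the same order. KRT80 peaks were 585 to 1651 bp wide. The highest-scoring CDH1 peak was 580 and 164 bp wide in untreated cells, 803 and 862 bp with cobimetinib, and 234 and 233 bp with TNFα. Both cobimetinib widths exceeded the other 4, but as said above these are not the same peak in every library, so no change in the width of 1 element can be read from them. The TNFα against cobimetinib difference was -1.83 ± 0.46 on the log2 scale (SE, n = 2 against 2, limma adjusted p = 0.601). EPCAM peaks were 950 and 250 bp wide in untreated cells, 1194 and 1245 bp with cobimetinib, and 1744 and 1389 bp with TNFα, but these are peaks at different starts. At the canonical EPCAM start the widths were 1517 and 250 bp, 1297 and 1444 bp, and 1744 and 1389 bp in the same order, and all conditions overlapped. Of the 8 members with a width in all libraries 0 passed in any comparison, beside 0.0% of 10397 promoters. At an unadjusted p below 0.05 the counts were 0 and 0 in the comparisons with untreated cells (0.491% and 0.375% of all) and 1, CDH1, in TNFα against cobimetinib (6.86%). Without untreated replicate 1, which leaves the narrow replicate alone, 4 of 8 members passed for cobimetinib (KRT80, CDH1, EPCAM and CLDN4) beside 40.3% of all promoters, and 2 of 8 for TNFα (EPCAM and CLDN4) beside 23.0%.

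Acetylation around the genes was also read from merged regions. Merging the 20000 highest-scoring peaks of each library within 100 bp gave 38598 regions, of which 69 lay within 50 kb of a member start. Of these, 43 were distal, with no base within 1 kb of the start of any protein-coding transcript, among 27379 distal regions in all. Of the 43, 5 lay near both KRT8 and KRT18. Starts of other transcripts, used for the promoter values, did not count here. The CDH1 region at the retained-intron start and the CLDN4 region chr7:73799077-73801236 are thus counted as distal and also gave promoter values. A peak of any score was present in all 6 libraries at 28 of the 43 (65.1%), beside 34.6% of all distal regions. Member regions were also wider than the rest (median widths of 1302 and 663 bp). All 11 regions near CLDN7 lay within 1 kb of some protein-coding start, so it contributed 0 distal regions.

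In no comparison did a distal member region pass limma's test over all 38598 regions (0 of 43 each, beside 0.0% of all). The lowest adjusted p was 0.145. At an unadjusted p below 0.05 there were 4 for cobimetinib against untreated cells (4.28% of all distal regions), 2 for TNFα against untreated cells (2.9%) and 12 for TNFα against cobimetinib (18.6%). Both cobimetinib libraries ranked above both untreated ones at 12 of 43 regions (27.9%, beside 17.9% of all distal regions) and below at 10 (23.3%, beside 10.3%). TNFα ranked above untreated cells at 10 (23.3%, beside 18.2%) and below at 9 (20.9%, beside 7.07%). TNFα ranked above cobimetinib at 10 (23.3%, beside 21.8%) and below at 14 (32.6%, beside 18.8%). Member regions thus separated in both directions. Groups that are both at the floor count as overlapping, and a peak in all 6 libraries was more frequent among member regions (65.1% beside 34.6%). The shares were not matched for this, and its part in them was not tested. The median differences were 0.49, 0.0 and 0.0 beside -0.13, -0.01 and 0.0 over all distal regions. The regions named next were picked for their mean rank or for the size of their difference, so their values are a description.

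**Figure D2:**
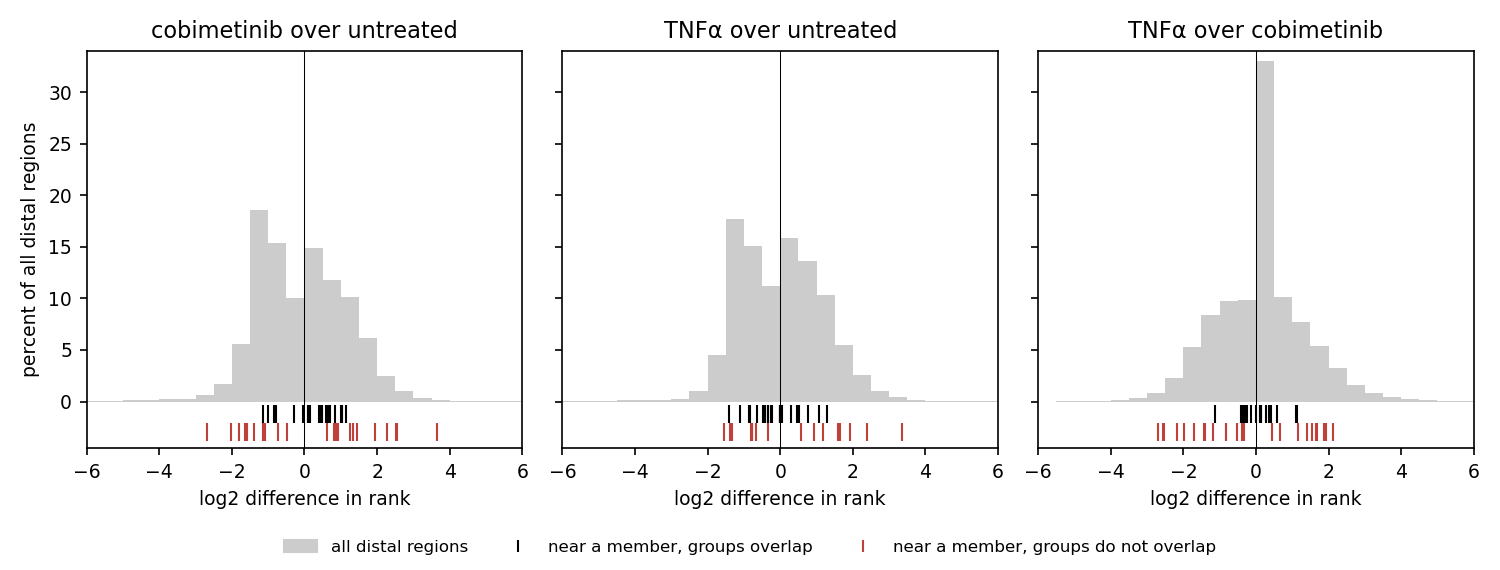
Differences in log2 rank at distal regions in the 3 comparisons, with positive values where the first-named condition ranked higher. Grey bars give the percent of all 27379 distal regions, black ticks the member regions whose conditions overlap and red ticks those whose conditions do not. The red ticks fall on both sides of 0 in each panel. The tall bar right of 0 in the last panel includes regions at the floor in all libraries compared.

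Near KRT80 the strongest region, chr12:52145853-52149871, lay 35.9 kb downstream of the nearest KRT80 start in intergenic sequence and is the source of the KRT80 stretch shown above. It ranked 258 and 278 in untreated cells, 2475 and 1200 with cobimetinib, and 504 and 433 with TNFα. The 3 conditions did not overlap, with untreated cells highest and cobimetinib lowest, and the difference was -2.69 ± 0.63 for cobimetinib against untreated cells (SE, n = 2 against 2). It was 4019 bp wide. A second region, chr12:52163715-52165098 at 20.7 kb downstream, moved the other way: 5337 and 100417 in untreated cells, 1780 and 1306 with cobimetinib, and 912 and 3915 with TNFα. All treated libraries ranked above both untreated ones there, by 3.66 ± 1.42 for cobimetinib and 3.35 ± 1.61 for TNFα, with untreated replicate 2 far below replicate 1.

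At chr12:52223326-52224499, 31.3 kb upstream of KRT80, peaks ranked 14643 and 23205 with TNFα, 92063 in cobimetinib replicate 1 and 21482 in untreated replicate 1, and neither remaining library had one. TNFα ranked above cobimetinib by 1.92 ± 0.32 (SE, n = 2 against 2). Both cobimetinib libraries were at the floor there, so that group added no spread to the SE. A narrow region of 257 bp at chr12:52156717-52156973 had no peak in either cobimetinib library but ranked 38595 and 10540 in untreated cells and 21201 and 27343 with TNFα. Of the 7 distal regions around KRT80, cobimetinib ranked below untreated cells at 3 (10.3% of all distal regions) and above at 1 (17.9%). TNFα ranked above cobimetinib at 4 (21.8%) and below at 1 (18.8%). Of those 4, the regions 31.3 and 37.9 kb upstream lay nearer to KRT7, at 8744 and 1602 bp from a start of it. In TNFα against cobimetinib the KRT80 promoter itself went the other way, and the KRT7 promoter, described further on, went the same way.

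**Figure D3:**
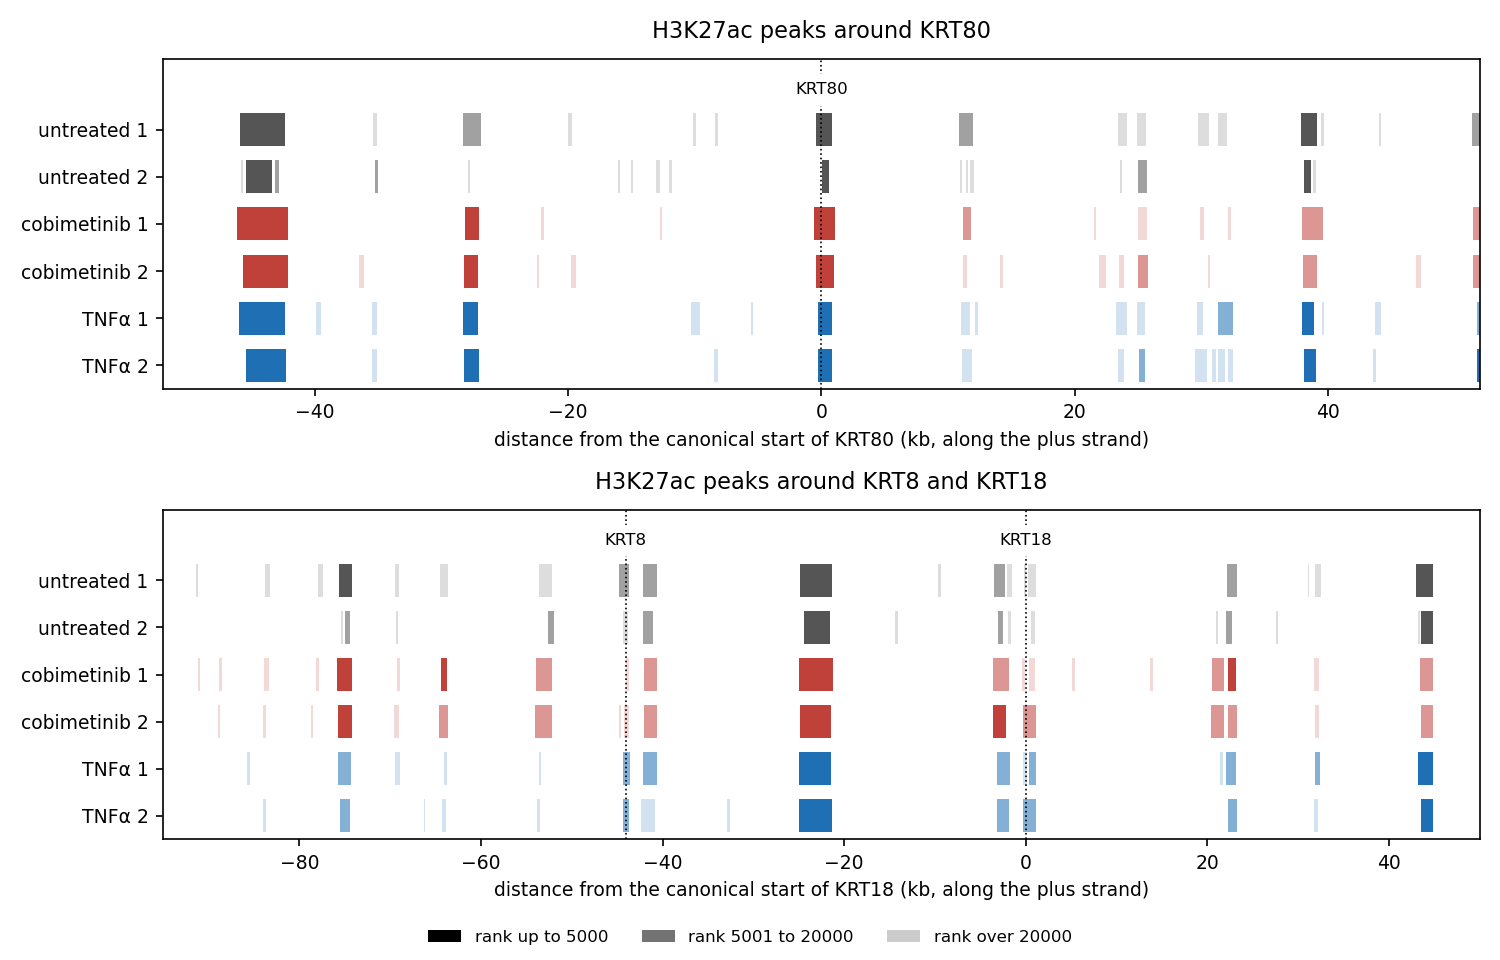
H3K27ac peaks around KRT80 (top) and around KRT8 and KRT18 (bottom) in each library, by distance in kb from the canonical KRT80 or KRT18 start along the plus strand. Each box is a deposited peak at its true width, darker for a rank up to 5000, paler for ranks up to 20000 and palest beyond. The broad peak between both canonical starts is dark in every row, and the box at the right edge of the KRT18 panel is paler with cobimetinib.

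Around KRT8 and KRT18 the distal regions split. The strongest region of KRT18, chr12:52992142-52994006 at 40.4 kb downstream, ranked 2807 and 2411 in untreated cells, 15529 and 7125 with cobimetinib, and 3100 and 3503 with TNFα. Untreated cells ranked above both treatments and cobimetinib ranked lowest, by -2.02 ± 0.57 against untreated cells (SE, n = 2 against 2). This region lay nearer to EIF4B, at 12450 bp from a start of it. Both regions shown above by sequence near KRT80 and KRT18 ranked in the same order of conditions. The strongest distal regions of KRT8, KRT19, KRT20, EPCAM, CDH1 and CLDN4, described below, also held AP1 words and did not share that order.

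Other regions around KRT8 and KRT18 were highest with cobimetinib. At chr12:52969552-52970957, 17.8 kb downstream of KRT18, the ranks were 19811 and 7125 with cobimetinib, 75835 in untreated replicate 2 and 110125 in TNFα replicate 1, with no peak in the other libraries. The region chr12:52884472-52885511, 16.4 kb downstream of KRT8, ranked 4692 and 13770 with cobimetinib, 68408 and 39486 with TNFα and 21482 in untreated replicate 1, with no peak in replicate 2. At chr12:52895109-52897118, 4.75 kb downstream of KRT8, TNFα was lowest, with 46873 and 69035 against 28915 and 13196 in untreated cells and 12310 and 13085 with cobimetinib. The differences for TNFα against cobimetinib were -2.55 ± 0.69, -2.69 ± 0.83 and -2.16 ± 0.45 in this order (SE, n = 2 against 2). At the first of these regions both TNFα libraries were at the floor and added no spread to the SE. The strongest distal region of KRT8, chr12:52873308-52874930, ranked 1724 and 8297, 4044 and 1576, and 5512 and 8313 in untreated, cobimetinib and TNFα libraries, and only TNFα and cobimetinib did not overlap. It lay 26937 bp from the nearest KRT8 start and 24314 bp from a KRT78 start. Of the 8 distal regions near KRT8, 5 of which also lay near KRT18, cobimetinib ranked above TNFα at 6 and below at 1. Over all distal regions the shares were 18.8% and 21.8%.

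CDH1 had 7 distal regions, 3 of them with a peak in all 6 libraries. The strongest, chr16:68754944-68756965, lay in an intron 17652 bp downstream of the canonical start. It ranked 6699 and 12386 in untreated cells, 14953 and 15332 with cobimetinib, and 5187 and 4455 with TNFα. The 3 conditions did not overlap, with TNFα highest and cobimetinib lowest, and TNFα exceeded cobimetinib by 1.66 ± 0.23 (SE, n = 2 against 2, limma unadjusted p = 0.00533, adjusted p = 0.145). This is opposite to the peak at the retained-intron start, chr16:68810922-68811812, where only cobimetinib had peaks within the floor. It lies over an exon of CDH1, and neither TNFα library had a peak overlapping it. Upstream, chr16:68706934-68708183 in an intron of the neighbouring cadherin gene CDH3 ranked 4963 and 16076 in untreated cells, 5461 and 12872 with cobimetinib, and 21566 and 23205 with TNFα. TNFα was lowest there, by -1.32 ± 0.87 against untreated cells.

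KRT20, almost without a promoter peak, had 6 distal regions, 5 of them with a peak in all 6 libraries. The strongest, chr17:40914675-40916902 at 29.4 kb upstream, ranked 2990 and 1705 in untreated cells, 1729 and 700 with cobimetinib, and 1324 and 412 with TNFα, and it held 4 AP1 words. Both TNFα libraries ranked above both untreated ones, by 1.61 ± 0.77 (SE, n = 2 against 2). This region lay nearer to KRT23, at 19488 bp from a start of it. At chr17:40856954-40857888, 27022 bp downstream of KRT20, the ranks were 28915 and 75835, 14679 and 9404, and 9089 and 8078. TNFα exceeded untreated cells by 2.39 ± 0.93. The conditions did not overlap there, with TNFα highest and untreated cells lowest. That region lay nearer to KRT12, at 9312 bp from a start of it. The KRT19 region with the highest mean rank, chr17:41529459-41530928, began just upstream of the gene at 1.15 kb and ranked 7004 and 34025, 12933 and 4411, and 8692 and 4512, with all conditions overlapping.

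EPCAM had 6 distal regions. The strongest, chr2:47354067-47356145 in an EPCAM intron, ranked 9413 and 7789 in untreated cells, 10280 and 3832 with cobimetinib, and 7384 and 4570 with TNFα, and held 3 AP1 words. TNFα ranked above untreated cells, by 0.56 ± 0.48 (SE, n = 2 against 2), and cobimetinib overlapped with both. The region chr2:47421603-47423248 at 47.8 kb downstream, within an intron of the next gene, ranked 10508 and 14208 with TNFα, 20631 and 18249 with cobimetinib and 31170 in untreated replicate 1, with no peak in replicate 2. Its difference for TNFα against untreated cells was 1.93 ± 1.00. A region of 250 bp at chr2:47312886-47313135 went down instead, from 63957 and 11168 in untreated cells to 113816 in 1 TNFα library and no peak in the other treated libraries.

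Among the claudins CLDN4 had 4 distal regions, where CLDN1 had 1 and CLDN7 had 0 by the definition used. An intronic region at chr7:73809003-73810476 ranked 3412 and 2951 in untreated cells, 1011 and 1332 with cobimetinib, and 1552 and 725 with TNFα. All 4 treated libraries ranked above both untreated ones, by 1.45 ± 0.39 for cobimetinib and 1.58 ± 0.53 for TNFα (SE, n = 2 against 2, limma unadjusted p = 0.024 and 0.0434, adjusted p = 0.591 and 0.644). Another intronic region, chr7:73821749-73823592, looked at after its values were seen, went the other way. It ranked 1576 and 3458 in untreated cells, 3990 and 6744 with cobimetinib, and 3855 and 4118 with TNFα. Of the 4 regions, cobimetinib ranked above untreated cells at 1 (17.9% of all distal regions) and below at 2 (10.3%). TNFα ranked above them at 2 (18.2%) and below at 1 (7.07%). A further region 19.4 kb downstream, chr7:73850443-73852134, was highest with TNFα only: 556 and 1356, against 3071 and 2321 in untreated cells and 4214 and 3353 with cobimetinib. TNFα exceeded cobimetinib there by 2.11 ± 0.56. That region lay nearer to METTL27, at 7927 bp from a start of it. CLDN1, without a promoter peak, had 1 distal region, chr3:190344655-190346188 in an intron of CLDN16 at 22.2 kb upstream. It ranked 23527 and 50470 in untreated cells, 15529 and 23257 with cobimetinib, and 19480 and 32591 with TNFα. It had a peak in all 6 libraries, and cobimetinib ranked above untreated cells by 0.86 ± 0.98, a difference smaller than its SE.

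**Figure D4:**
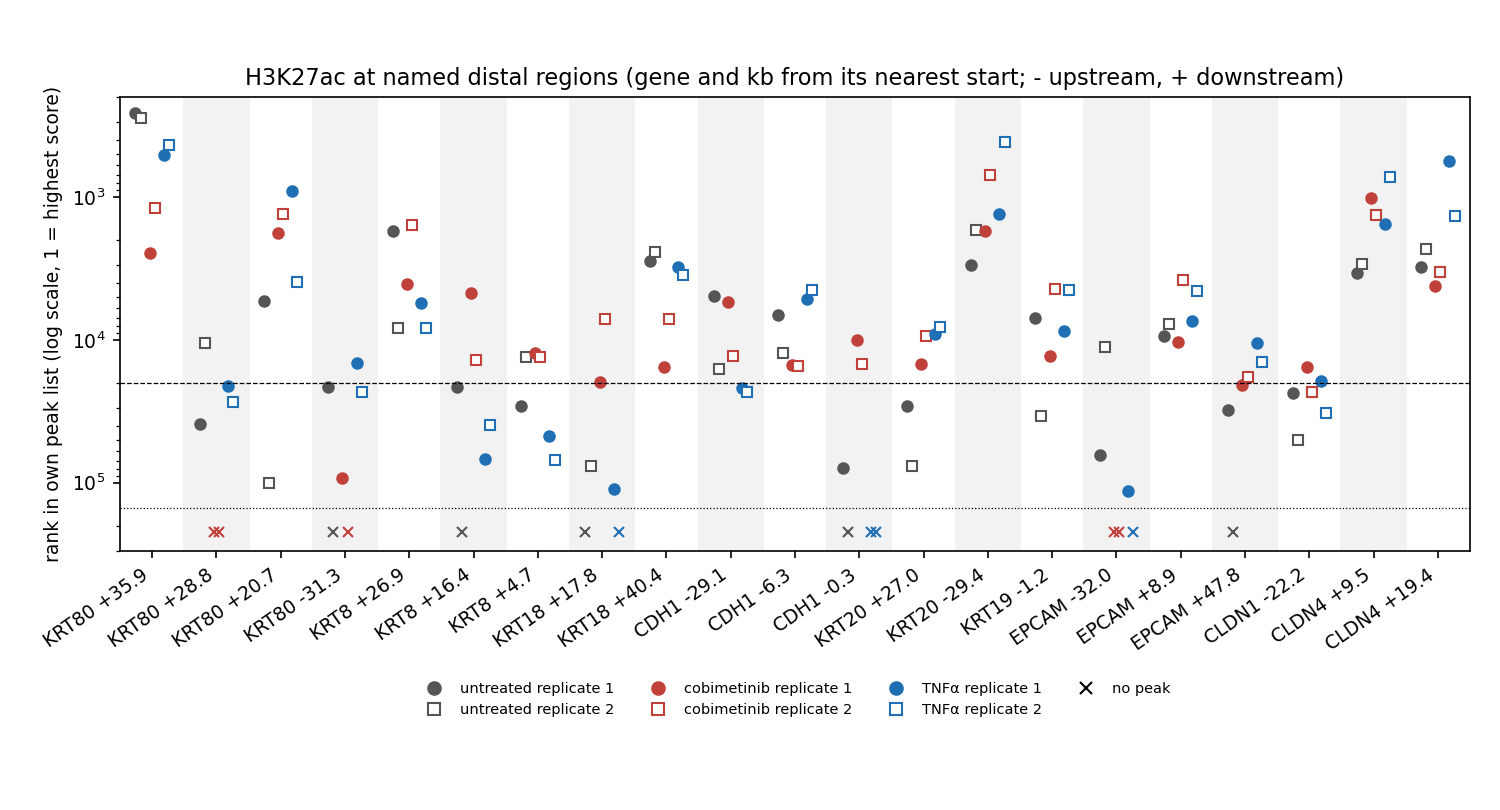
Rank of the distal regions picked for their mean rank or size of difference, in each library. The log axis has rank 1 at the top, and labels give the gene and distance in kb from its nearest annotated start. Filled circles are replicate 1, open squares replicate 2, crosses mark libraries without a peak, and the dashed line is rank 20000. At KRT80 +35.9 and KRT18 +40.4 both cobimetinib libraries lie lowest, and at CLDN4 +9.5 all treated libraries lie above both untreated ones.

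AP1 words occurred in 26 of the 43 distal member regions (60.5%), beside 37.1% of all distal regions. Since the member regions were wider, they were also set beside distal regions within 20% of each one's width, of which 55.1% on average held the word. E2-box words occurred in 36 of 43 (83.7%), beside 44.2% of all and 61.4% of those of like width, GC-box words in 14 (32.6%, 19.4% and 28.9%) and TATA words in 25 (58.1%, 44.1% and 57.2%). Per kb of sequence the member regions held 0.697 AP1 and 1.41 E2-box words, beside 0.632 and 0.97 in all distal regions.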

How the data were processed

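H3K27ac CUT&RUN peak lists of 6 HCT116 libraries (2 per condition) were analysed; 6 IgG libraries are not analysed here. Per the labels and the methods of the study, the authors aligned reads to hg38 with BWA 0.7.15, called peaks with MACS2 2.1.1 in each library without IgG at p = 0.01, in paired-end and single-end mode, and merged both lists keeping the higher score. The deposited values are whole-number scores from 20 upward. Scores grow with sequencing depth, which is unknown here, so they were used as ranks within a list (mean rank for ties). The study's DESeq2 comparison of read counts could not be repeated from peak lists.

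The best rank and the width of the peak with at least 1 bp within 1 kb of any GENCODE 44 transcript start were taken for each protein-coding gene with such a peak in at least 2 of 6 libraries, or in all 6 for widths. Minus log2 ranks and log2 widths were compared with limma 3.58.1 (R 4.3.3) in the 4 libraries of each comparison, with Benjamini-Hochberg adjustment over all features and a threshold of 0.05. A peak beyond the shortest list was set to the floor, so differences at weak peaks are understated. Where both libraries of a group are at the floor they have no spread between them, and the SE and p-value then do not measure the spread of that group. The scripts were tested on simulated data. Nothing in the labels says that replicates were separate cultures, so p-values cover only the spread between these libraries.

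All 10 members are named, with the distal region of best mean rank for each and, in each comparison and direction, the 3 largest differences among regions whose conditions did not overlap. Members, lists and words were chosen with earlier results of these data known. Replicate numbers were checked for pairing by correlating the deviations of same-numbered libraries from their means, which gave 0.025, 0.099 and 0.055, so replicates were treated as unpaired. Alternatives were another scaling of rank, another floor, other filters, starts and peak limits, a replicate block and leaving out each replicate.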

Additional observations from a re-analysis of the deposited data

How the results depend on the processing

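The lists hold no read counts, so depth could not be used as a limit, and weak peaks near the floor carry little information. Untreated replicate 2, which its peak names mark as merged after resequencing, had narrow peaks. No result passed limma's test in the comparisons as reported, so every count below is set against 0. Differences are log2 of rank or width, medians over the members unless a gene is named. The canonical start was tried after the data were seen.

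With the replicate number as a block the medians of the member promoters stayed at 0.26, 0.08 and 0.04 for cobimetinib against untreated, TNFα against untreated and TNFα against cobimetinib, and 0 features passed in every fit. The block changed no other call.

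Promoter medians for TNFα against cobimetinib, 0.04 as reported, became 0.31 with ranks as a percent of the list, -0.043 with promoters marked in all 6 libraries and with the 40000 highest peaks, -0.13 with peak midpoints, 0.13 with protein-coding starts and 0.22 with canonical starts. For TNFα against untreated cells canonical starts gave 0.48. With protein-coding or canonical starts the CDH1 difference of 2.52 for cobimetinib became 0.0 and that of -2.42 for TNFα against cobimetinib became 0.0081. Only 3 members kept a peak in all 6 libraries among the 20000 highest, against 8. Distal medians became 0.22 for cobimetinib against untreated cells and 0.23 for TNFα against cobimetinib with ranks as a percent, 0.091 for the first with 40000 peaks and 0.12 for the second with 10000 peaks.

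Counts past the threshold rose from 0 in TNFα against cobimetinib to 69 promoters with a floor at each list's own length, and to 123 (1.18%; 1 member, CDH1) among promoters marked in all 6 libraries. For regions that floor gave 240 (0.622%; 1 member region), 190 (0.492%; 1) and 3539 (9.17%; 6) in cobimetinib against untreated, TNFα against untreated and TNFα against cobimetinib. The 1 member region in both comparisons with untreated cells was that 20.7 kb downstream of KRT80. All 6 libraries in the fit gave 10, 27 and 313 regions, with 0 member regions. The 40000 highest peaks gave 14, 2593 (2.47%; 3 member regions) and 428. In TNFα against cobimetinib 10000 peaks gave 261 and ranks as a percent 8 (0.0207%; 1 member region). Covered bases gave 1 width for cobimetinib.

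Leaving out each library in turn, promoter medians ranged from -0.28 to 0.80, -0.13 to 0.42 and -0.16 to 0.071 in the same order of comparisons, widths from -0.11 to 1.05, -0.09 to 1.01 and -0.12 to 0.12, and distal medians from 0.027 to 0.63, -0.10 to 0.29 and -0.20 to 0.0021. Counts of promoters called ranged from 0 to 406 for TNFα against untreated cells, the highest without untreated replicate 2. Widths called ranged from 0 to 4191 and 0 to 2388 in the comparisons with untreated cells (0 to 4 and 0 to 2 members), the highest without untreated replicate 1. Regions called ranged from 0 to 9185, 0 to 9072 and 1845 to 2308, with 0 to 4, 0 to 3 and 2 to 4 member regions, the highest in both comparisons with untreated cells without untreated replicate 1. A lone library was assumed to vary like the remaining group. There both libraries of a group can sit at the floor with no spread between them, also with 40000 peaks and, at some features, in the comparisons as reported.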

Other observations

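Other epithelial junction and regulator genes were marked as well, from lists chosen with earlier results known. A promoter peak lay within the top 20000 of all 6 libraries for 7 of 12 other claudin and tight junction genes (among them OCLN, TJP1 and F11R), 4 of 10 adherens junction and desmosome genes (CTNNA1, CTNND1, DSG2 and PKP3) and 3 of 10 epithelial membrane and regulator genes (ESRP2, GRHL2 and ELF3), beside 25.8% of all genes. The villin gene VIL1 and the cingulin gene CGN had no promoter peak in any library. By limma none of these genes was called in any comparison.

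The other keratins of simple epithelia moved apart. KRT7 ranked 11546 and 9374 in untreated cells, 15805 and 13534 with cobimetinib, and 5140 and 4290 with TNFα. KRT23 ranked 11016 and 7276, 2830 and 3436, and 15973 and 13009 in the same conditions. The 3 conditions did not overlap at either gene, with TNFα highest at KRT7 and cobimetinib highest at KRT23. Of all 13555 promoters, 32.5% did not overlap in cobimetinib against untreated cells, 26.2% in TNFα against untreated cells and 41.8% in TNFα against cobimetinib. GRHL2, a transcription factor of epithelial cells, ranked 4248 and 4322 in untreated cells, 1485 and 1720 with cobimetinib, and 6702 and 7251 with TNFα. The F11R promoter, of a tight junction adhesion molecule, ranked 4963 and 3458, 8068 and 12671, and 1292 and 2551. KRT7, KRT23, GRHL2 and F11R were singled out after their values were seen.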
